A study of Homo sapiens with 6 samples.

Results

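DKK1, WNT5B and 8 further genes of the Wnt signal (DKK3, WNT5A, LRP5, LRP6, KREMEN1, FZD5, FZD6 and CTNNB1) were followed in K562 cells resistant to methotrexate (MTX) and in the parental K562 cells. The genes were chosen by name with earlier results of the same arrays known, and every probe set whose platform annotation names 1 of them was taken, which gave 28 probe sets for 10 genes, of 41097 probe sets for 19775 genes in all. A probe set is a group of short array probes that together read 1 transcript region. Because the same contrast was in view when the genes were selected, their values are given as a description, with their spread and with no p-value. Where a call from the fit across all genes is named for a member, it is part of that description and no evidence.

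K562 is a human erythroblastic leukemia line, and MTX is an antifolate that blocks dihydrofolate reductase. Expression was read on 6 one-colour Affymetrix human arrays. Resistant cells (3 arrays) had been obtained by stepwise exposure to MTX, up to a concentration that the labels write as 10e-5M, and were kept in selective medium without glycine, hypoxanthine and thymidine, with dialyzed serum. Parental cells (3 arrays), sensitive to MTX, were kept in Ham's F12 medium with fetal bovine serum, so resistance, medium and serum cannot be told apart. Total RNA came from triplicate samples of each line, and no source used here says whether these were separate cultures, so the spread may be technical.

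Wnt proteins are secreted, lipid-modified ligands that bind Frizzled receptors on the cell surface. In the canonical branch a Frizzled and the co-receptor LRP5 or LRP6 form a complex with the ligand, the destruction complex is held back, and beta-catenin, the product of CTNNB1, enters the nucleus and activates genes together with TCF/LEF factors. WNT5A and WNT5B act mainly through branches that do not need beta-catenin. DKK1 is a secreted antagonist that binds LRP5 and LRP6, and KREMEN1 is a membrane receptor for DKK1 that helps remove LRP6 from the surface. DKK1 is itself a known target of beta-catenin, and WNT5A and WNT5B are best known from development and from solid tumours.

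The start regions of DKK1 and WNT5B are shown because DKK1 is the antagonist and WNT5B the ligand that the results turn on, and because DKK1 is a known TCF/LEF target. Each is the RefSeq window on GRCh38.p14, plus strand, from 250 bases before an annotated transcript start to 50 from the start on. Capitals mark matches, searched on both strands, to the TCF/LEF motif (searched as CTTTGAA, then in the form with CTTTGAT, the form with CTTTGTA and the form with CTTTGTT) and to the TATA motif, TATAAA; the motifs do not overlap in these windows. DKK1 has 1 window, chr10:52314031-52314330, and WNT5B has 2, chr12:1616806-1617105 and chr12:1628981-1629280.
DKK1: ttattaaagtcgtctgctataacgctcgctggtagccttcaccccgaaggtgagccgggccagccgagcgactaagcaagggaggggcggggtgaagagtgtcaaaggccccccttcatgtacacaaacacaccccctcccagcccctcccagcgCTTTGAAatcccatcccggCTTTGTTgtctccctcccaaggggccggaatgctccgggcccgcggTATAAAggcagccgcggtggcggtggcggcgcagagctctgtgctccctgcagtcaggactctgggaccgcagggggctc
WNT5B, upstream window: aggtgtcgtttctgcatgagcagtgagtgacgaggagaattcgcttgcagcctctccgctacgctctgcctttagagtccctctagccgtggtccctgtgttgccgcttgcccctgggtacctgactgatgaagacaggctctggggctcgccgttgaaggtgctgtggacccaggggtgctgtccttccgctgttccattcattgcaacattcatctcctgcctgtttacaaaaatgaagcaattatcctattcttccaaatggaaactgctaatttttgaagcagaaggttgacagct
WNT5B, downstream window: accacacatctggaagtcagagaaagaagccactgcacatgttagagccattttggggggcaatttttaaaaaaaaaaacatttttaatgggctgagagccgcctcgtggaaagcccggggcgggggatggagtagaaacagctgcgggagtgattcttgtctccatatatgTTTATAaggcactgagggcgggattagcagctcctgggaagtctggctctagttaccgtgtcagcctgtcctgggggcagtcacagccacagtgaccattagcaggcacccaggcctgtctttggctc
The DKK1 window held 2 TCF/LEF matches, CTTTGAA from 95 and CTTTGTT from 76 bases upstream of the start, and TATAAA from 30 bases upstream. Of 35116 such windows over all genes, 13.8% held at least 1 TCF/LEF match, 1.58% held 2 or more and 11.5% held TATAAA. Neither WNT5B window held a TCF/LEF match, and the downstream one held TATAAA on the other strand, from 78 bases upstream. CpG counts were 20 in the DKK1 window and 10 and 7 in the WNT5B windows, against a median of 14 over all windows. These matches describe letters and not binding.

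Levels are given as multiples of the array median, the signal of a probe set divided by the median signal of its array, so 1 is the middle of the array. The array medians were 10.2 to 12.5 in resistant cells and 12.7 to 14.3 in parental cells, on the deposited scale. The Spearman correlation between replicates of 1 group was 0.85 to 0.87 in resistant and 0.85 to 0.88 in parental cells, across genes, which are not independent replicates. The erythroid markers fitted the label of the line: 8 of the 8 measured were above the median on all 6 arrays. Their summed level was 1138 to 1361 in resistant cells and 1696 to 1778 in parental cells. The lower sum in resistant cells came from HBE1, with a log2 difference of -3.35, called lower by the rule given below. No other erythroid marker was called. HBZ, ALAS2 and KLF1 were higher in resistant cells, at 0.13, 0.25 and 0.56. TFRC, TAL1, EPOR and GATA1 were lower, at -0.09, -0.49, -0.57 and -0.82. Parental replicate 1 stood apart in epithelial markers. CDH1, the epithelial cadherin, was at 21.8 there, against 2.01 and 0.717 in the other parental replicates and at most 0.373 in resistant cells, and the summed level of the 5 epithelial markers was 221 to 305 in resistant cells and 266 to 634 in parental cells, with 634 in parental replicate 1. The 5 measured lymphoid markers summed to 2.84 to 5.25 in resistant cells and 35.5 to 51.8 in parental cells, where CD3D, a T cell receptor subunit, was at 50.3, 31.9 and 35.2. Nearly all of the parental lymphoid sum was CD3D. The other lymphoid markers reached at most 1.99 on any array. Their log2 differences were -2.11 (CD2), -0.41 (CD79A), 0.47 (CD3E) and 1.54 (MS4A1). The 5 monocyte and granulocyte markers summed to 10.9 to 23.3 in resistant cells and 42.9 to 63.9 in parental cells, most of it from LYZ, the 4 megakaryocyte markers to 3.11 to 4.30 in resistant cells and 6.45 to 27.4 in parental cells, and the 6 fibroblast markers to 6.60 to 8.87 in resistant cells and 7.37 to 8.73 in parental cells. Most of the parental megakaryocyte sum was ITGA2B, while PF4 was higher in resistant cells on the log2 scale. The part of other cells in the results was not tested, and in bulk RNA fewer cells of a type and less RNA per cell cannot be told apart. Many values are also given without parental replicate 1.

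Of the 28 probe sets, 14 reached a mean level of 1 and entered the fit across all genes, and 14 did not. All 6 of DKK3 and both of WNT5A were among those left out, so 8 genes had a tested probe set. Just inside that filter stood KREMEN1 (227250_at), at 1.09, 0.0960 and 0.618 in resistant and 1.36, 2.28 and 1.5 in parental cells, and just outside stood another KREMEN1 probe set (224534_at), at 0.0650, 0.712 and 0.490 in resistant and 1.31, 1.16 and 0.646 in parental cells. Over the arrays, 8 of the 28 probe sets were above the median on all 6, 10 on none and 10 on some, where over all probe sets 36.9% were above on all 6 and 31.8% on none. A call was an adjusted p under 0.05 with at least a 2-fold change in limma, and 1 of the 14 tested probe sets, of WNT5B, was called higher in resistant cells and 0 lower, against 1.20% called higher and 1.14% called lower of the 26692 tested. The groups did not overlap, with resistant cells higher, for 5 of the 14 (14.9% of all tested) and, with resistant cells lower, for 1 (12.3% of all tested). These counts were fixed in part by the choice of genes, and nothing is read from them. The median log2 difference was -0.07 over the 14 and 0.03 over all tested, and the median spread between replicates was 0.70 on the log2 scale over the 14 against 0.39 over all tested.

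**Figure D1:**
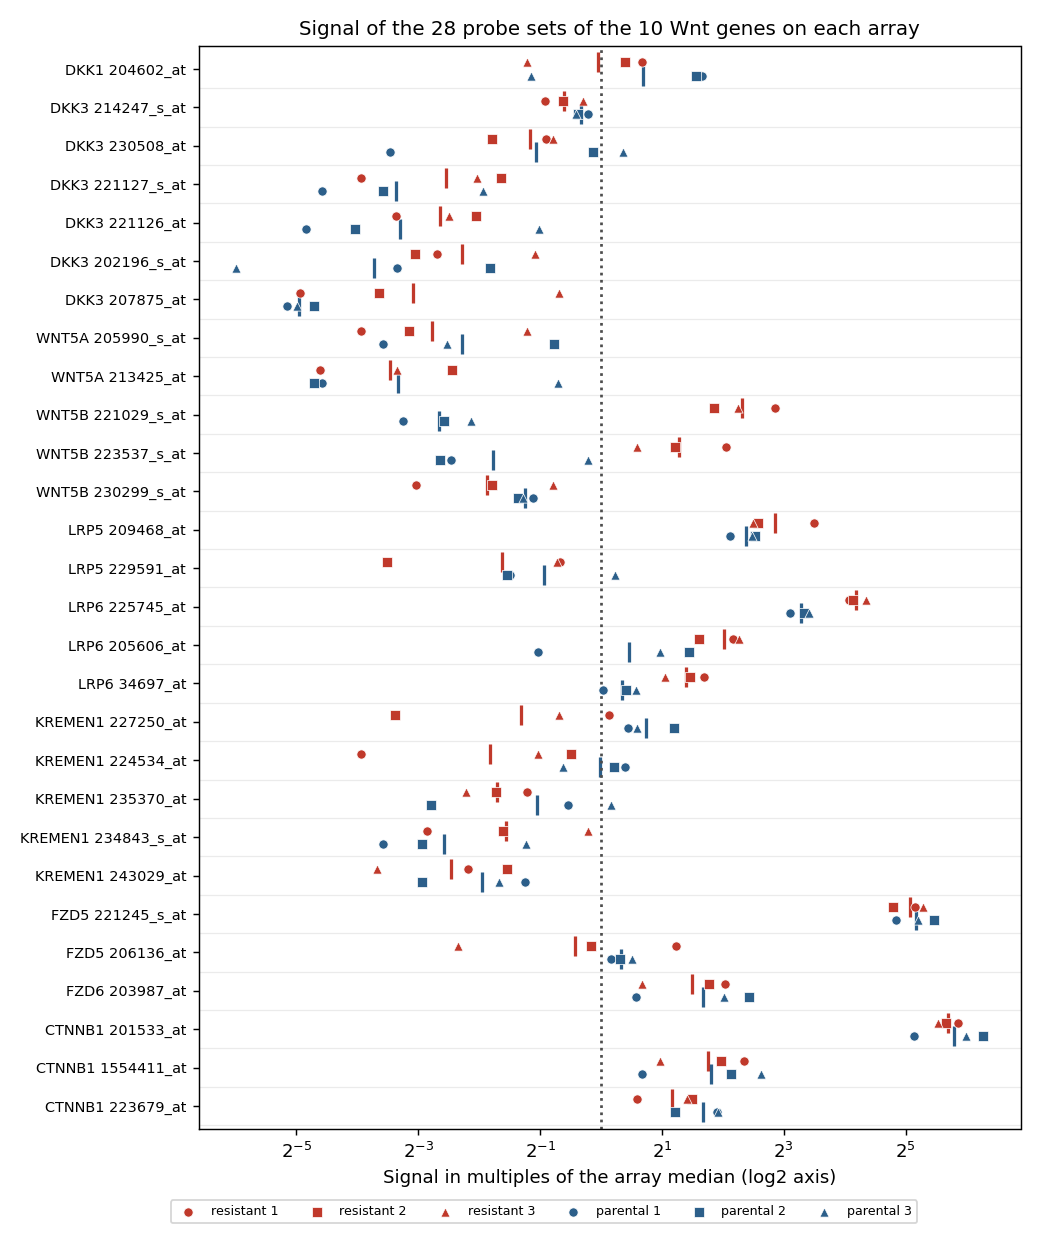
Level of each of the 28 probe sets as signal over the array median, drawn on a log2 axis, with 1 symbol per replicate, resistant cells in red above parental cells in blue, and a short bar at the mean of the log2 values of each group; the dotted line is the array median. WNT5B 221029_s_at lay between 3.60 and 7.26 in resistant cells and between 0.105 and 0.228 in parental cells, while DKK1 overlapped between the groups.

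Of the ligands, WNT5B was higher in resistant cells in both of its tested probe sets and WNT5A did not reach the filter. Both tested WNT5B probe sets passed only through their resistant levels, so their direction is in part set by the filter. The WNT5B probe set under the filter, 230299_s_at, gave a log2 difference of -0.62. The WNT5B probe set 221029_s_at stood at 7.26, 3.60 and 4.76 array medians in resistant cells and at 0.105, 0.168 and 0.228 in parental cells. All 3 resistant arrays were above the median and all 3 parental arrays were far below it. The level averaged 5.21 ± 1.87 in resistant cells and 0.167 ± 0.0617 in parental cells (SD, n = 3 each), a log2 difference of 4.97 ± 0.39 (SE) or 31.4-fold. The size depends on how low values are treated. The log2 difference was 3.67 after adding a pseudocount of 0.25 and 2.37 after adding 1.

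The second WNT5B probe set, 223537_s_at, stood at 4.15, 2.31 and 1.51 in resistant cells and at 0.182, 0.160 and 0.858 in parental cells. The groups again did not overlap, and the log2 difference was 3.06 ± 0.71, with parental replicate 3 nearest to the resistant arrays; it was 3.84 without that replicate. All 3 WNT5B probe sets carry a suffix by which the array maker marks probes shared between transcripts. The third, 230299_s_at, stood below the median on every array, at 0.122, 0.288 and 0.578 in resistant and 0.462, 0.389 and 0.409 in parental cells, and did not follow the others. WNT5A, the close relative of WNT5B, stayed below the median on all 6 arrays with both its probe sets, at 0.0407 to 0.431 in resistant cells and 0.0382 to 0.614 in parental cells.

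Of the antagonists, DKK1 overlapped between the groups and DKK3 did not reach the filter. DKK1 (204602_at) stood at 1.60, 1.32 and 0.431 in resistant cells and at 3.15, 2.93 and 0.449 in parental cells. In each group the first 2 replicates were above the median and the third was well below it. DKK1 averaged 1.12 ± 0.611 in resistant cells and 2.18 ± 1.5 in parental cells (SD, n = 3 each), a log2 difference of -0.73 ± 0.87, smaller in size than its standard error. Parental replicate 3 and resistant replicate 3 set this size: the difference was -1.65 without the one and -0.14 without the other, and -0.24 without parental replicate 1. DKK3, a relative of DKK1 that does not act on LRP5 and LRP6 in the same way, stood at 0.0325 to 0.814 in resistant cells and at 0.0157 to 1.28 in parental cells over its 6 probe sets, with a single value above the median, in parental replicate 3.

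KREMEN1, the partner of DKK1 at the membrane, was lower in resistant cells in the probe set that passed the filter (227250_at). This probe set passed only through its parental levels, so its direction is in part set by the filter. The levels given above averaged 0.601 ± 0.497 in resistant cells and 1.71 ± 0.497 in parental cells (SD, n = 3 each), with no overlap, and the log2 difference was -2.06 ± 0.86. Resistant replicate 2, at 0.0960, set much of it, and the difference without that replicate was -1.03. Probe set 224534_at, just under the filter, overlapped between the groups with a log2 difference of -1.81. The other 3 overlapped too and ranged from 0.0784 to 0.863 in resistant and 0.0839 to 1.12 in parental cells. Of these, 235370_at and 243029_at gave -0.66 and -0.51, while 234843_s_at went the other way, at 1.03.

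**Figure D2:**
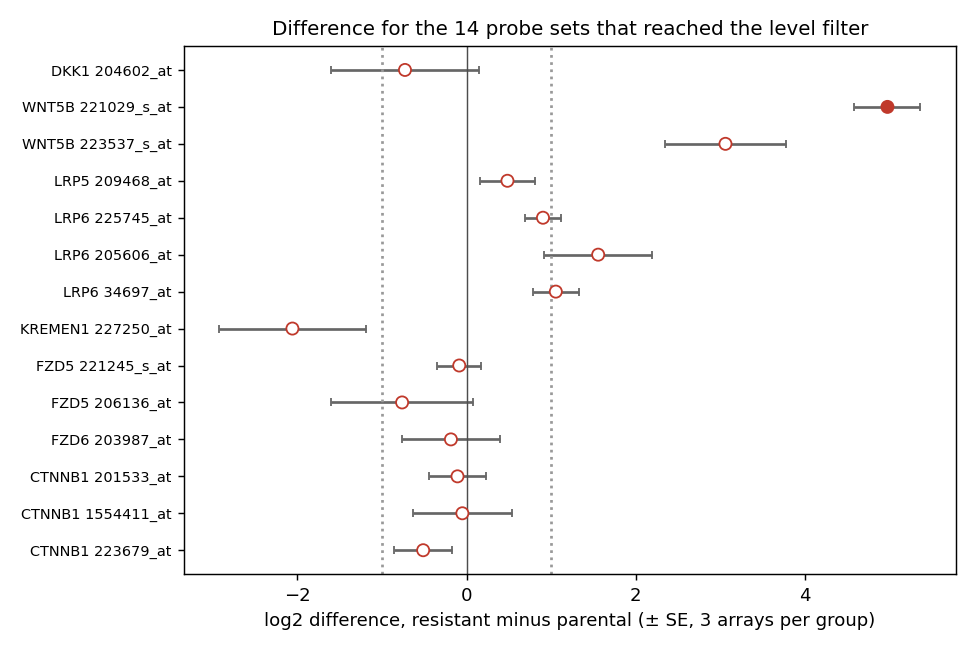
Log2 difference, resistant minus parental, with its standard error over 3 arrays per group, for the 14 probe sets that reached the level filter; the filled point was called, open points were not, and the dotted lines mark a 2-fold change. WNT5B 221029_s_at stands at 4.97, the 3 LRP6 probe sets between 0.90 and 1.56, and the frizzled and CTNNB1 probe sets lie between -0.76 and -0.05.

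LRP6, the co-receptor on which DKK1 acts, was higher in resistant cells in all 3 of its probe sets, none of which was called. Probe set 225745_at stood at 16.8, 17.6 and 20.3 in resistant cells and at 8.56, 10.1 and 10.7 in parental cells. It averaged 18.2 ± 1.86 in resistant cells and 9.77 ± 1.09 in parental cells (SD, n = 3 each), a log2 difference of 0.90 ± 0.21 or 1.87-fold. Probe set 34697_at, at 3.21, 2.75 and 2.07 in resistant and 1.02, 1.34 and 1.5 in parental cells, gave 1.05 ± 0.27. Probe set 205606_at, at 4.50, 3.04 and 4.82 in resistant and 0.490, 2.72 and 1.95 in parental cells, gave 1.56 ± 0.64, and 0.81 without parental replicate 1. In each of the 3 probe sets every resistant array was above every parental array, narrowly so for 205606_at.

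LRP5, the other co-receptor, overlapped between the groups. Its tested probe set 209468_at stood at 11.3, 5.96 and 5.64 in resistant cells and at 4.33, 5.78 and 5.55 in parental cells, a log2 difference of 0.48 ± 0.33 that came to 0.16 without resistant replicate 1. The frizzled receptors overlapped too. FZD5 (221245_s_at) stood at 35.5, 27.8 and 39.1 in resistant cells and 28.6, 44.1 and 36.6 in parental cells, with a log2 difference of -0.09 ± 0.26. The other FZD5 probe set, 206136_at, gave -0.76 ± 0.84, and FZD6 (203987_at), at 4.08, 3.41 and 1.59 in resistant and 1.48, 5.37 and 4.07 in parental cells, gave -0.18 ± 0.58. Parental replicate 1 was the lowest parental array for FZD6, and the difference was -0.74 without it.

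CTNNB1, the transducer, was measured by 3 probe sets that were above the median on all 6 arrays. Probe set 201533_at stood at 58.1, 50.9 and 46.5 in resistant cells and at 35.2, 77.3 and 63.3 in parental cells. It averaged 51.9 ± 5.88 in resistant cells and 58.6 ± 21.5 in parental cells (SD, n = 3 each), and the wide parental spread came from parental replicate 1. The log2 difference was -0.11 ± 0.33, and -0.44 without that replicate, while 1554411_at gave -0.05 ± 0.59, and -0.62 without parental replicate 1, and 223679_at gave -0.51 ± 0.34. Parental replicate 1 was below parental replicates 2 and 3 for 11 of the 14 tested probe sets (37.9% of all tested), and resistant replicate 3 was the lowest resistant array for 8 of the 14 (43.3% of all tested).

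The rest of the pathway was read with a list of 106 genes in 8 roles, 1 representative probe set a gene, of which 100 had a probe set that names no other gene and 54 reached the filter. Of the 54, 1 fell and 0 rose in limma, against 1.30% called higher and 1.47% called lower of the 11810 genes tested. The median log2 difference was 0.12 over the 54 and 0.02 over all genes, and the groups were apart with resistant cells higher for 11 of the 54 (16.1% of all genes tested) and lower for 5 (14.2% of all genes tested).

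**Figure D3:**
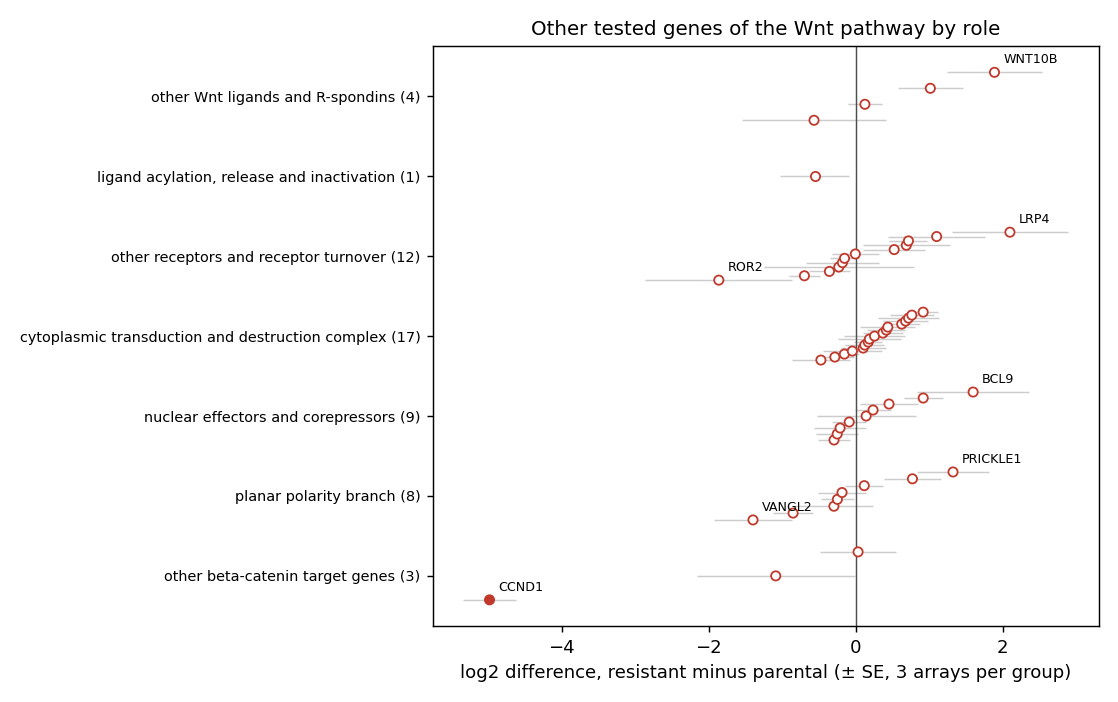
Log2 difference, resistant minus parental, with its standard error over 3 arrays per group, for the 54 tested pathway genes by role (number tested in brackets); the filled point was called. CCND1 stands alone at -4.98, and the other 53 lie between -1.86 (ROR2) and 2.10 (LRP4).

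CCND1, which encodes cyclin D1, a regulator of entry into S phase and a known target of beta-catenin, was the gene that fell. Its probe set 208712_at stood at 0.455, 0.736 and 0.294 in resistant cells and at 15.1, 15.7 and 13.1 in parental cells. Every resistant array was below the median and every parental array was far above it. The log2 difference was -4.98 ± 0.36 (limma, adjusted p = 0.00279), a 31.6-fold lower level. This size rests on resistant levels under the median and is poorly measured. Probe set 208712_at was called in all 17 alternatives, the one without a level filter among them, with adjusted p at most 0.0446. Both CCND1 probe sets passed the filter only through their parental levels, so their direction is in part set by the filter. The second, 208711_s_at, stood at 0.837, 0.968 and 0.353 in resistant and 3.00, 6.86 and 4.98 in parental cells. It fell by 2.83 on the log2 scale (limma, adjusted p = 0.0408), or 7.10-fold. It was called in 8 of the 16 alternatives that tested it, but not without a level filter. On leaving out 1 replicate its adjusted p was 0.0299 to 0.133 in limma, and the call was kept only without parental replicate 1. Of the other beta-catenin targets tested, CD44 (212063_at) stood at 10.5, 9.85 and 3.82 in resistant and at 90.5, 7.05 and 5.93 in parental cells, so that its high parental mean came from parental replicate 1 alone, the array that was also high in epithelial markers, and its log2 difference of -1.09 came to 0.18 without it.

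Among the ligands and R-spondins, 4 of 21 listed genes were tested and 0 passed. WNT10B stood at 3.92, 2.73 and 2.59 in resistant and 1.44, 1.34 and 0.283 in parental cells, with a log2 difference of 1.89 ± 0.64 (limma, adjusted p = 0.188), and 1.13 without parental replicate 3. WNT6 gave 0.13. In the role of ligand acylation, release and inactivation, NOTUM, which removes the lipid from Wnt proteins, gave -0.56 (limma, adjusted p = 0.564). None of the 11 other secreted antagonists reached the filter.

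Of 20 other receptors and receptor turnover genes, 12 were tested and 0 passed, with a median log2 difference of -0.08. LGR4, a receptor for R-spondins, and RYK, a Wnt receptor of the tyrosine kinase family, gave 0.69 and -0.36. The LGR4 difference came to 0.02 without parental replicate 1, the lowest parental array for it at 3.09. LRP4, a low-density lipoprotein receptor relative, gave 2.10 ± 0.79 (limma, adjusted p = 0.226), and 1.19 without parental replicate 1. Of 20 genes of cytoplasmic transduction and the destruction complex 17 were tested and 0 passed, with a median of 0.26. APC, the scaffold of the destruction complex, gave 0.19 (limma, adjusted p = 0.849), and -0.25 without parental replicate 1. CSNK1A1, the casein kinase that starts phosphorylation of beta-catenin, gave 0.42 by its representative probe set (limma, adjusted p = 0.437). Of the 12 tested CSNK1A1 probe sets 0 were called, and for 6 the groups were apart with resistant cells higher (14.9% of all tested probe sets), among them 1556007_s_at at 1.45 (limma, adjusted p = 0.0588), 208865_at at 0.93 and 206562_s_at at 0.86. Probe set 226920_at went the other way, at -0.38. Probe sets of 1 gene are not independent, so nothing is read from the count. BTRC, the ubiquitin ligase subunit that recognises phosphorylated beta-catenin, stood at 13.6, 12.0 and 11.4 in resistant cells and 7.05, 6.32 and 6.20 in parental cells and gave 0.92 ± 0.20 (limma, adjusted p = 0.0788).

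Of 13 nuclear effectors and corepressors 9 were tested and 0 passed, with a median of 0.14. LEF1, a DNA-binding partner of beta-catenin, stood at 34.2, 24.1 and 32.3 in resistant and 12.4, 19.0 and 16.8 in parental cells and gave 0.92 ± 0.27 (limma, adjusted p = 0.142). The 2 other tested LEF1 probe sets overlapped between the groups and gave -0.12 (210948_s_at) and -0.69 (221557_s_at). TCF7L2 gave 0.24. Of 10 genes of the planar polarity branch 8 were tested and 0 passed. SCRIB gave 0.12, and DAAM1, a formin that binds Dishevelled, gave -0.85 ± 0.27 by its representative probe set (limma, adjusted p = 0.170). While 2 others of the gene gave -0.39 and -0.32, a further DAAM1 probe set, 244062_at, fell by 3.14 on the log2 scale (limma, adjusted p = 0.00800). It stood at 0.203, 0.192 and 0.392 in resistant and 2.22, 2.50 and 1.90 in parental cells. It passed the filter only through its parental levels, so its direction is in part set by the filter. The call was kept in 13 of the 15 alternatives that tested it, but not without a level filter. Over all 122 tested probe sets of the listed genes, 3 fell, 2 of CCND1 and this 1 of DAAM1, and 0 rose, against 1.14% called lower and 1.20% called higher of the 26692 probe sets tested.

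**Figure D4:**
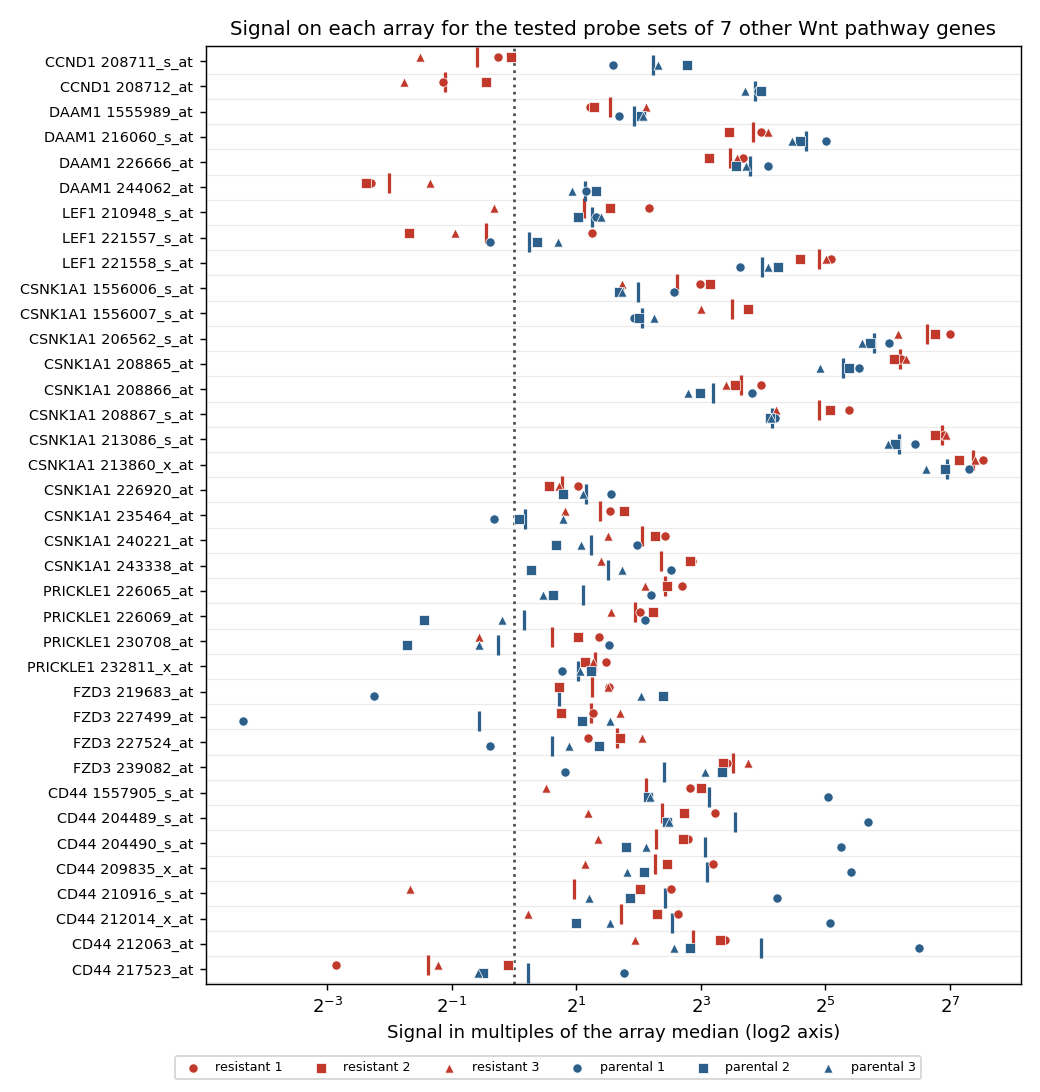
Signal over the array median, drawn on a log2 axis, for each array and the 37 tested probe sets of 7 other pathway genes, with resistant cells in red above parental cells in blue, a symbol per replicate and a bar at the mean of the log2 values; the genes were chosen after their values were seen. CCND1 208712_at is the clearest separation, and for CD44 parental replicate 1 lies far from the other arrays.

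The genes nearest in pattern to WNT5B and DKK1 were found by the root mean square difference of log2 levels, each centred on its own mean, over the 6 arrays. For WNT5B these were JMY, KCNJ5, SERINC5, GOLM1 and ZDHHC11, at 0.37, 0.41, 0.41, 0.43 and 0.47. All 5 were higher in resistant cells on every array, with log2 differences of 4.50 to 5.14. For DKK1 they were CEP89, PLXNA1, ZNF311, EME2 and RSPH3, at 0.35, 0.38, 0.45, 0.45 and 0.45, with log2 differences of -1.11 to -0.34, and these share with DKK1 a low replicate 3 in both groups. The search picks genes by their pattern over these same arrays. The shared direction, size and low replicate 3 therefore follow from the search and are no further result.

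WNT5B and LRP6 lie on chromosome 12 and DKK1 on chromosome 10. The 5 nearest tested genes on each side were read for each, a choice made after the values were known. For WNT5B, 0 of 10 were called, with log2 differences of -0.36 to 0.62 (median -0.11). For LRP6, 0 of 10 were called, at -1.22 to 0.87 (median 0.04), and for DKK1, 0 of 10, at -0.80 to 0.92 (median -0.22). Over all genes tested 1.30% were called higher and 1.47% lower. A count of 0 of 10 is near that share, so nothing is read from it about these regions.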

How the data were processed

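Total RNA from 3 resistant and 3 parental K562 samples was hybridised to Affymetrix HG U133 Plus 2.0 arrays. The deposited values were intensities, 1 linear MAS5 signal per probe set, which the authors made with MAS5 per the labels; the genome build was not given in the sources used here, and no detection calls were used. Gene names came from the platform annotation: 41097 probe sets named 1 gene, 1801 several and 11777 none. Each intensity was divided by its array median, as in the study's methods, floored at 0.01 and taken to log2. The 26692 probe sets with a mean level of at least 1 were tested with limma 3.58.1 (R 4.3.3), two-sided, with Benjamini-Hochberg adjustment over all of them; a call needed adjusted p under 0.05 and a 2-fold change. Genes were represented by their brightest probe set, by mean log2 level. Named genes were every member probe set, every called pathway gene, the 2 tested genes of highest level in each role and the 5 genes nearest in pattern to DKK1 and WNT5B; others were chosen after their values were seen. The members and lists were chosen with earlier results of these data known. The number of arrays limits the precision. Alternatives changed the scaling, filter, pseudocount, test, replicate block and probe sets, and left out each replicate.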

Additional observations from a re-analysis of the deposited data

How the results depend on the processing

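Against 622 calls over all probe sets, 319 higher and 303 lower in resistant cells, the count was 174 without a level filter, 1191 with a pseudocount of 1 and 1133 with a trended robust prior. It was 910 with the filter at 2, 917 with a pseudocount of 0.25 and 394 without probe sets of shared sequence. An equal-variance t-test with Benjamini-Hochberg adjustment, on the probe sets tested here, gave 126. The paper's own filter could not be rebuilt, so 126 is not the count of its procedure. Leaving out 1 replicate gave 204 to 1080, the highest without parental replicate 1. Values as deposited gave 205 higher and 317 lower, with a median log2 shift of -0.18. The pathway count was 1 (CCND1) and became 2 without a level filter, where RSPO2 was added, and 2 without parental replicate 1, where PRICKLE1 was added (range 1 to 2 over the left-out replicates). The WNT5B probe set 221029_s_at, chosen on this contrast, was not called by the equal-variance t-test. Over the alternatives that can change a log2 difference, 302 of 308 values of the member probe sets moved by less than the replicate spread and 6 by more. Leaving out 1 of 3 arrays cannot move a difference by more than that spread. For those alternatives the count was therefore fixed in advance, and no stability is read from it. The sign of 11 of the 28 turned on leaving out 1 replicate, 5 of them tested (both of FZD5, FZD6 and 2 of CTNNB1). With the replicate number as a block, the replicate block fit called 269 probe sets and 1 pathway gene; same-numbered samples deviated with correlations of -0.01, -0.03 and -0.01, so the numbers do not pair the samples. The causes were not tested. With 3 arrays a group and no detection calls, differences at levels under the median are poorly measured.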

Other observations

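SFRP2, a secreted antagonist under the level filter and chosen after its values were seen, stood at 1.72, 1.62 and 0.873 array medians in resistant cells and at 0.0629, 0.0763 and 0.441 in parental cells. RSPO2, an R-spondin ligand also under the filter, stood at 0.0813, 0.0960 and 0.0588 in resistant cells and at 0.573, 0.832 and 1.09 in parental cells. Each untested gene was read by its probe set of highest level only. The groups did not overlap in that probe set for SFRP2 or RSPO2, and with means under 1 neither entered the test. Among the untested pathway genes the groups were also apart for DKK2, FZD1, FZD10 and ROR1 (resistant lower) and WNT4 (resistant higher). For the other untested genes with a probe set the groups overlapped. Of all tested probe sets, 14.9% were apart with resistant cells higher and 12.3% with resistant cells lower. No such share was taken over probe sets under the filter, so nothing is read from these genes.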
